A study of Mus musculus with 10 samples.

Results

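Cadherins are calcium-dependent adhesion proteins that join neighbouring cells, and each cell type carries its own set of them. Most hold cells together at the adherens junction, where catenins link their inner ends to actin. Fibroblasts carry mesenchymal cadherins and lack the epithelial one. When fibroblasts are turned towards pluripotency they pass through a mesenchymal to epithelial transition, in which epithelial adhesion genes come on and mesenchymal ones go down. The 5 cadherins described here were chosen by their symbols among the 48476 genes of the series table, and 23 genes of that table are named Cdh. Cdh1 encodes E-cadherin, the cadherin of epithelia and of pluripotent cells. Cdh3 encodes P-cadherin, which is found in basal epithelia and placenta. Cdh2 encodes N-cadherin and Cdh11 encodes OB-cadherin, both typical of mesenchymal cells. Cdh13 encodes T-cadherin, which is held in the membrane by a lipid anchor and has no inner end to bind catenins.

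The cells were mouse embryonic fibroblasts (MEFs) from embryos of day 13.5, of the strain CBA/CaJ X C57BL/6J, and per the study's methods they carried a reporter of Oct4 activity. Retroviruses carried Oct4, Klf4 and Sox2 (OKS) into all of them, and they were grown in the reprogramming medium iCD1. The control arm also received the red fluorescent protein DsRed (OKS+DR) and the other arm received FoxO6, a forkhead transcription factor (OKS+FoxO6). Bulk RNA-seq followed both arms over days 0, 1, 3, 5 and 7. Every day and arm gave a single library, 10 in all, so no value of a single day has a replicate. The infected cells were mixed populations and not clones, and in bulk RNA fewer cells of a type and less RNA per cell cannot be told apart.

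The libraries held between 1208379 and 2225750 expected counts (reads assigned to genes). Levels are given in TPM, which are reads per transcript length scaled to the same total in every library and can be set against each other between genes. Foxo6 lay between 0.61 and 2.29 TPM in OKS+DR and between 762.11 and 1356 TPM in OKS+FoxO6, already from day 0. The 12 fibroblast markers were all detected. Their summed level went from 10631 TPM at day 0 to 3145 TPM at day 7 in OKS+DR and from 10175 to 3410 TPM in OKS+FoxO6, and over the days 1 of the 12 was lower and 2 were higher in OKS+FoxO6, against 6.89% and 6.63% of all genes tested. The summed markers of other cell types lay below those of fibroblasts in every library, at 22.2 to 58.6 TPM in OKS+DR and 33.1 to 104.7 TPM in OKS+FoxO6 for endothelium. They were 15.1 to 57.1 and 22.3 to 29.4 TPM for macrophages, 19.5 to 71.9 and 5.54 to 51.3 TPM for basal epidermis, and 26.6 to 76.0 and 37.4 to 69.2 TPM for neural cells. At its highest in OKS+DR each of these 3 sums was mostly 1 gene. These were Cd68 at day 3 (52.6 TPM), Sfn at day 7 (61.0 TPM) and Map2 at day 7 (58.9 TPM). Sox17 of the endothelial list and Krt15 of the epidermal list had no read, and at its highest, at day 5 in OKS+FoxO6, the endothelial sum was almost all Tek (103.7 TPM). Tek was the 1 endothelial marker of 8 with enough reads to test and was called higher in OKS+FoxO6. Pecam1 was lower there on 4 days and higher on 0, with 0.76 TPM at day 7 against 5.73 TPM in OKS+DR. That OKS+DR value came from 18 reads, and every other library had at most 3. Tie1, with at most 7 reads, was higher in OKS+FoxO6 on 4 days and lower on 1. The 8 muscle markers summed to 2.81 to 48.1 TPM in OKS+DR and to 8.47 to 237.7 TPM in OKS+FoxO6. Its highest value, at day 7, was almost all Acta1 (235.53 TPM), while Myf5, Myog and Tnnt3 had no read in any library. The part of these markers in the results below was not tested.

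**Figure D1:**
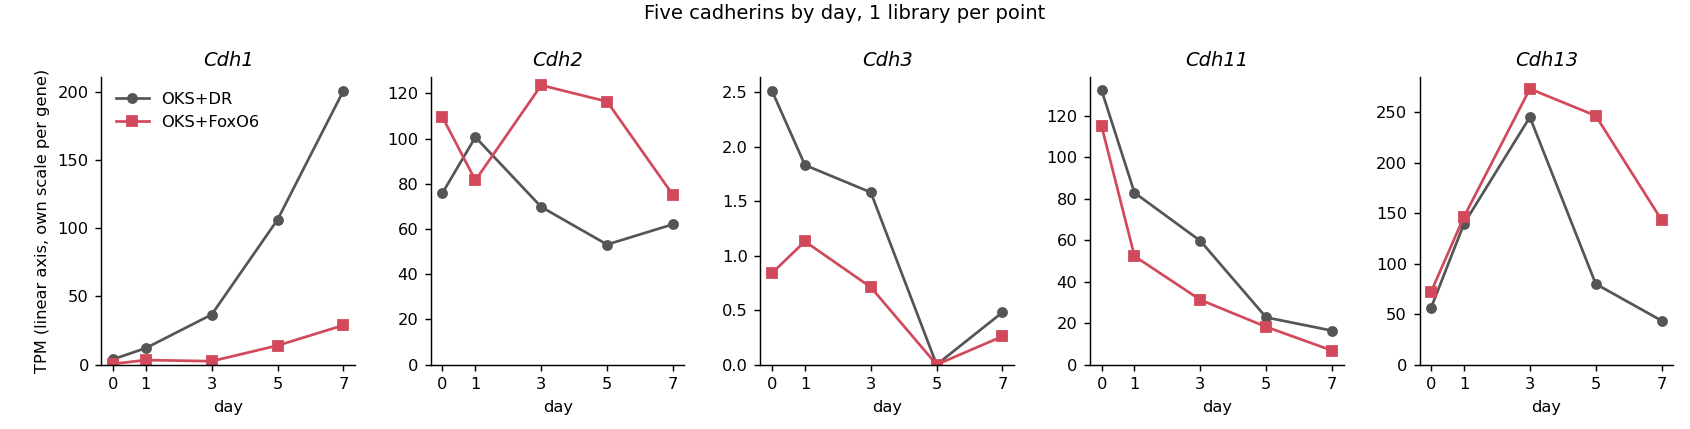
TPM of the 5 cadherins (vertical axes, linear, each with its own scale) by day (horizontal axes) in OKS+DR (grey circles) and OKS+FoxO6 (red squares), with 1 library per point and no error bar. Cdh1 climbed to 200.7 TPM in OKS+DR and to 28.9 TPM in OKS+FoxO6, Cdh11 went down in both arms, and Cdh13 had its highest value at day 3 in both.

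Cdh1 (ENSMUSG00000000303; GRCm38 chromosome 8, 106603351 to 106670246, plus strand) was the member that differed most between the arms. In OKS+DR its level was 3.90, 12.2, 36.7, 106.3 and 200.7 TPM at days 0, 1, 3, 5 and 7, from 11, 37, 117, 318 and 853 reads. In OKS+FoxO6 it was 0.58, 3.35, 2.55, 14.0 and 28.9 TPM, from 2, 2, 10, 62 and 113 reads. Every OKS+DR library was above the OKS+FoxO6 library of its day, and the last OKS+FoxO6 value lay below the OKS+DR value of day 3.

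Cdh1 rose with day in both arms. The fitted slope was 0.76 ± 0.05 (SE) log2 units per day in OKS+DR, with an adjusted p of 0.000140 by edgeR's quasi-likelihood test. In OKS+FoxO6 it was 0.93 ± 0.07 log2 units per day with an adjusted p of 0.000420. Of the 12212 genes tested, 5.82% rose in OKS+DR and 4.80% rose in OKS+FoxO6 by the same test, and Cdh1 was the 1 member among them in either arm. The difference of the slopes, OKS+FoxO6 minus OKS+DR, was 0.17 with an interval from -0.04 to 0.39 log2 units per day and an adjusted p of 0.647. By this test no gene of the 12212 had different slopes (0%), although 1035 had an unadjusted p under 0.05 and DESeq2 called 34.

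With day as a factor, Cdh1 was lower in OKS+FoxO6 by 3.11 on the log2 scale (SE 0.22, adjusted p of 4.42e-05 by edgeR, lower on 5 of 5 days). The share of genes lower in OKS+FoxO6 was 6.89% and the share higher was 6.63%. This test has no replicate cultures behind it. Its spread is how the arms differ from day to day, and it describes these courses and not independent infections.

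On counts scaled to library size, the ratio of OKS+FoxO6 to OKS+DR for Cdh1 was 0.0966 at day 0 with an exact 95% interval from 0.0104 to 0.443. It was 0.0492 (0.00574 to 0.191) at day 1 and 0.0633 (0.0296 to 0.121) at day 3. At day 5 it was 0.128 (0.0957 to 0.168) and at day 7 it was 0.159 (0.129 to 0.193). These intervals cover counting error only. All 5 left out a ratio of 1, and those of days 0 and 1 were wide because 2 reads stood behind each OKS+FoxO6 value.

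**Figure D2:**
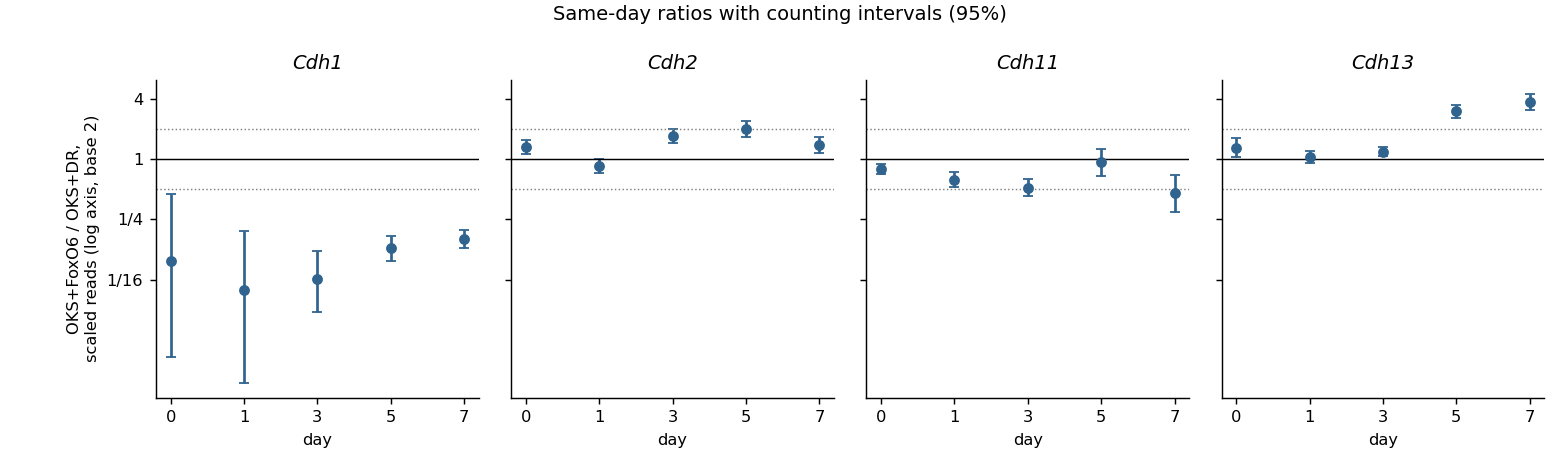
Ratio of OKS+FoxO6 to OKS+DR in scaled reads (vertical axis, log scale) on each day (horizontal axes) for Cdh1, Cdh2, Cdh11 and Cdh13, with exact 95% intervals for counting error. The solid line is a ratio of 1 and the dotted lines are 2-fold, and Cdh1 lay below the lower dotted line on all 5 days while Cdh13 lay above the upper one at days 5 and 7 (2.98 and 3.69).

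The order of the Cdh1 levels interleaved the arms only in part. From low to high in scaled reads, the libraries were OKS+FoxO6 at days 0, 1 and 3, OKS+DR at days 0 and 1, OKS+FoxO6 at days 5 and 7, and OKS+DR at days 3, 5 and 7. Of the 9 steps between neighbours in this order, 4 were beyond their counting interval. The first 4 libraries could not be told apart step by step. OKS+FoxO6 at day 5 was 1.21 times OKS+DR at day 1 (0.790 to 1.86), and OKS+FoxO6 at day 7 was 0.916 times OKS+DR at day 3 (0.701 to 1.20), so neither step exceeded its interval.

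The day 1 level of Cdh1 in OKS+FoxO6 depended on the length used. RSEM gave the gene an effective length of 726 nucleotides there, against 4369 in OKS+DR at day 0, so 2 reads became 3.35 TPM. With the median length over the libraries the same reads gave 0.56 TPM. This put the 5 OKS+FoxO6 values in rising order from 0.42 TPM at day 0 to 29.0 TPM at day 7. The first 2 steps of that order were within counting error. In scaled reads day 1 was 1.29 times day 0 (0.0937 to 17.8) and day 3 was 4.17 times day 1 (0.888 to 39.1). The difference in log2(TPM + 1) at day 1 was -1.60 as deposited and -2.97 with the median length.

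Cdh3 (ENSMUSG00000061048; chromosome 8, 106510891 to 106557297, plus strand) lies upstream of Cdh1 on the same strand and stayed near the limit of detection. It had 2.51, 1.83, 1.58, 0 and 0.48 TPM in OKS+DR, from 7, 6, 5, 0 and 2 reads. In OKS+FoxO6 it had 0.84, 1.13, 0.71, 0 and 0.26 TPM, from 4, 4, 3, 0 and 1 reads. The 0 reads at day 5 allow a true count of up to 3 reads, which is 2.19 CPM (reads scaled to a fixed library size) in OKS+DR and 1.43 CPM in OKS+FoxO6. The exact two-sided 95% limits were 2.69 and 1.76 CPM. Cdh3 was lower in OKS+FoxO6 on 4 of 5 days, but all 4 intervals held a ratio of 1, from 0.304 (0.0652 to 1.19) at day 0 to 0.599 (0.0101 to 11.5) at day 7. It did not pass the filter on low counts and was not tested, and none of the 9 steps in its order was beyond counting error. No single-day difference between the arms was beyond counting error at this depth, and a difference over the days was not tested. Within OKS+DR, the 0 reads of day 5 lay beyond counting error below days 0 and 1, with upper bounds of the ratio of 0.575 and 0.932. Day 7 was 0.175 times day 0 (0.0177 to 0.918), and no pair of days in OKS+FoxO6 differed beyond counting error. The OKS+FoxO6 course had the same shape with fewer reads, so this does not set the arms apart. These intervals were not adjusted for the number of pairs.

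The genes that start within 200 kb of the start of Cdh1 were low or silent. Zfp90 had 2.80 to 12.7 TPM and a shift of -0.24 (SE 0.37, adjusted p of 0.733 by edgeR). Tango6 had 2.31 to 8.06 TPM and a shift of -0.31 (SE 0.34, adjusted p of 0.618 by edgeR). 6030452D12Rik and 1110028F18Rik had no read and Gm10073 at most 1.03 counts.

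Among the mesenchymal cadherins, Cdh11 (ENSMUSG00000031673; chromosome 8, 102632095 to 102785642, minus strand) was the one whose slope was called, falling in both arms. It had 132.2, 82.8, 59.6, 22.8 and 16.4 TPM at days 0, 1, 3, 5 and 7 in OKS+DR. With FoxO6 it had 114.9, 52.2, 31.2, 18.2 and 6.80 TPM. Both courses went down at each step, and OKS+FoxO6 was the lower arm on each day, by little at days 0 and 5.

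The slope of Cdh11 was -0.46 ± 0.05 (SE) log2 units per day in OKS+DR and -0.52 ± 0.05 in OKS+FoxO6, with adjusted p of 0.000845 and 0.00117 by edgeR. The share of falling genes was 6.05% in OKS+DR and 4.76% in OKS+FoxO6, and Cdh11 was the 1 tested member among them in both. The slopes differed by -0.06, with an interval from -0.23 to 0.10. In scaled reads the day 7 level was 0.114 times that of day 0 in OKS+DR (0.0900 to 0.143) and 0.0662 times in OKS+FoxO6 (0.0454 to 0.0933). In OKS+DR the step from day 5 to day 7 was within counting error, with a ratio of 0.900 (0.653 to 1.24).

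Over the days Cdh11 was lower in OKS+FoxO6 by 0.62 on the log2 scale (SE 0.16, adjusted p of 0.0236 by edgeR). The same-day ratios were 0.789 (0.701 to 0.888), 0.624 (0.527 to 0.737), 0.518 (0.424 to 0.633), 0.925 (0.679 to 1.27) and 0.457 (0.299 to 0.686). The day 5 interval was the one that held 1. The call was lost without day 1 (adjusted p of 0.0768 by edgeR) and without day 3 (0.112). So 2 of the 4 tested members, Cdh1 and Cdh11, were called lower in OKS+FoxO6, against 6.89% of all genes tested, 1 epithelial and 1 mesenchymal.

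Cdh2 (ENSMUSG00000024304; chromosome 18, 16588877 to 16809246, minus strand) kept a high level to the last day in both arms. It had 75.9, 100.6, 69.8, 53.1 and 62.1 TPM in OKS+DR, from 156 to 306 reads. The OKS+FoxO6 libraries had 109.5, 81.5, 123.6, 116.4 and 75.1 TPM, from 274 to 492 reads. The whole range over the 10 libraries was 53.1 to 123.6 TPM, and the arms overlapped.

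Cdh2 was higher in OKS+FoxO6 on 4 of 5 days, with a shift of 0.47 (SE 0.17) and an adjusted p of 0.0832 by edgeR, which missed the threshold. Its interval ran from 0.11 to 0.84. The same-day ratio in scaled reads was 1.32 (1.12 to 1.56) at day 0, 0.850 (0.721 to 1.00) at day 1 and 1.69 (1.44 to 1.99) at day 3. It was 2.0 (1.67 to 2.42) at day 5 and 1.37 (1.15 to 1.64) at day 7. Without day 1, the day on which OKS+DR was higher, the shift was 0.65 with an adjusted p of 0.0290 by edgeR. The slopes of -0.10 per day in OKS+DR (adjusted p of 0.163 by edgeR) and -0.02 in OKS+FoxO6 (0.838) were not called. None of the 9 steps in its order of levels was beyond counting error, though the day 7 level was below that of day 0 in both arms, at 0.742 times (0.612 to 0.901) in OKS+DR and 0.772 times (0.663 to 0.897) in OKS+FoxO6.

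Cdh13 (ENSMUSG00000031841; chromosome 8, 118283733 to 119324921, plus strand) had a passing peak in the control arm and a longer one with FoxO6. It had 56.4, 139.7, 245.2, 80.0 and 43.6 TPM in OKS+DR, from 119, 391, 618, 204 and 155 reads. The FoxO6 arm gave 72.3, 146.6, 273.2, 246.6 and 143.3 TPM, from 291, 446, 989, 928 and 478 reads. The arms ran close to each other to day 3 and apart at days 5 and 7.

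From day 0 to day 3 the scaled reads of Cdh13 went to 4.01 times (3.29 to 4.92) in OKS+DR and to 3.66 times (3.21 to 4.19) in OKS+FoxO6. From day 3 to day 5 they went to 0.354 times (0.301 to 0.416) in OKS+DR and to 0.891 times (0.814 to 0.975) in OKS+FoxO6. At day 7 the level was 0.797 times that of day 0 in OKS+DR, with an interval that held 1 (0.623 to 1.02). In OKS+FoxO6 it was still 2.26 times that of day 0 (1.95 to 2.63).

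The same-day ratio of Cdh13 was 1.30 (1.05 to 1.62), 1.04 (0.904 to 1.19) and 1.19 (1.07 to 1.31) at days 0, 1 and 3. It was 2.98 (2.56 to 3.49) at day 5 and 3.69 (3.07 to 4.45) at day 7. Over the days the shift was 0.81 (SE 0.25, higher on 5 of 5 days) with an adjusted p of 0.0577 by edgeR, above the threshold. It was called by DESeq2 (adjusted p of 0.00927) and without day 1 (0.0437 by edgeR). The course went up and then down, and neither slope of a straight line was called (-0.14 and 0.15 log2 units per day, adjusted p of 0.602 and 0.541 by edgeR).

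By the study's rule of a 2-fold difference, here in log2(TPM + 1), 1 of 5 members passed at days 0, 1 and 3, which was Cdh1 each time. At day 5 there were 3 of 5, with Cdh1 lower and Cdh2 and Cdh13 higher in OKS+FoxO6. At day 7 there were again 3, with Cdh1 and Cdh11 lower and Cdh13 higher. Among 15011 genes whose mean TPM reached 1, the rule took 17.0% on day 0 and 17.5% on day 1. It took 20% on day 3, then 21.7% and 24.8% on days 5 and 7. Cdh3, with a mean of 0.93 TPM, was not among these 15011 genes, so the counts out of 5 and these shares cover unlike sets. The single-day differences have no test.

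Read as a set, the 5 cadherins changed their leader. Cdh11 had the highest TPM at day 0 in both arms, with 48.8% of the summed TPM of the 5 genes in OKS+DR and 38.6% in OKS+FoxO6. Cdh13 led at days 1 and 3 in both arms. In OKS+DR Cdh1 then took the lead with 40.5% at day 5 and 62.1% at day 7. In OKS+FoxO6 Cdh13 kept it with 62.4% and 56.3%, and Cdh1 held 3.55% and 11.4%. Cdh2 led in no library, with a share between 16.9% and 29.9% in OKS+DR and between 28.6% and 36.7% in OKS+FoxO6. The summed TPM of the 5 genes at day 7 was 323.2 in OKS+DR and 254.4 in OKS+FoxO6.

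**Figure D3:**
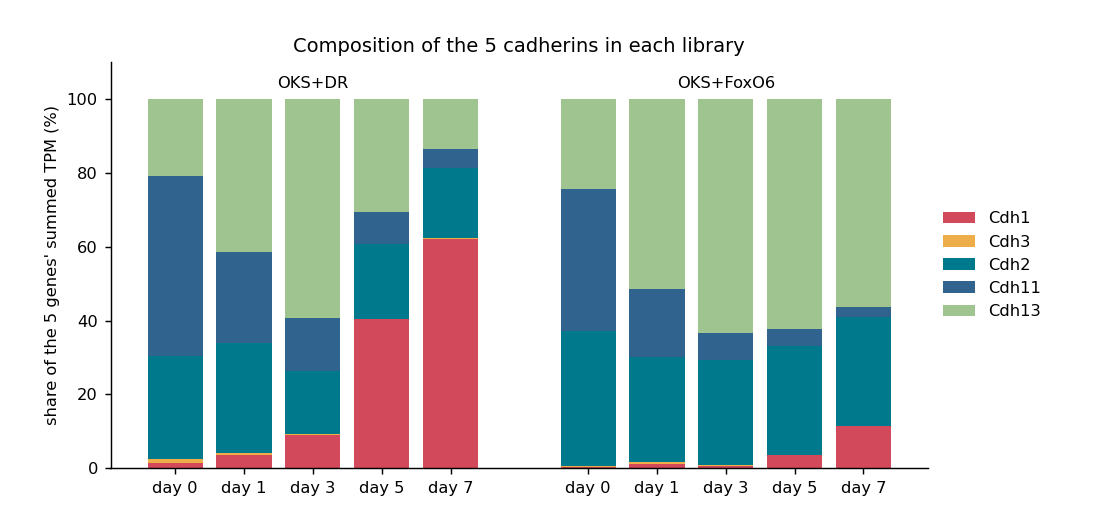
Share of each cadherin in the summed TPM of the 5 genes (vertical axis, percent) in each of the 10 libraries, with OKS+DR on the left and OKS+FoxO6 on the right by day. The Cdh1 part grew to 62.1% at day 7 in OKS+DR and to 11.4% in OKS+FoxO6, where Cdh13 held 56.3%.

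Cdh1 against Cdh2 is the pair by which a cadherin switch is commonly followed. The log2 ratio of their TPM, with 1 added to each, was -3.97, -2.95, -0.91, 0.99 and 1.68 at days 0, 1, 3, 5 and 7 in OKS+DR. In OKS+FoxO6 it was -6.13, -4.25, -5.13, -2.97 and -1.35. With the median gene length the OKS+FoxO6 value of day 1, which rests on 2 Cdh1 reads, was -5.80. Each value of that course was then above the one before. The Cdh1 steps from day 0 to day 1 and from day 1 to day 3 were within counting error. Cdh1 was thus above Cdh2 at days 5 and 7 in OKS+DR and in no library of OKS+FoxO6. The ratio was lower in OKS+FoxO6 on 5 of 5 days, by 2.93 ± 1.23 (SD, n = 5 pairs), with an exact two-sided permutation p of 0.0625, the smallest that 5 pairs can give. The pairs are days of 1 course per arm and not replicate cultures, so the SD and p describe these courses only. In OKS+DR the change lay mainly in Cdh1, since Cdh2 at day 7 still had 62.1 TPM against 75.9 at day 0.

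**Figure D4:**
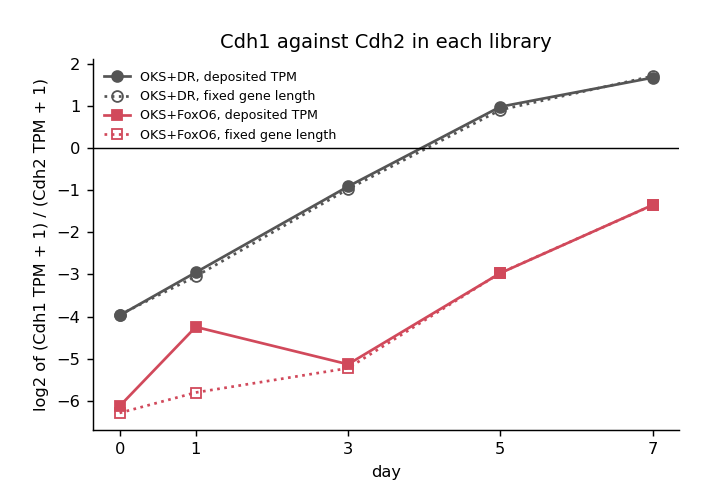
Log2 ratio of Cdh1 to Cdh2 TPM with 1 added to each (vertical axis) by day (horizontal axis) in OKS+DR (grey) and OKS+FoxO6 (red), 1 library per point, with filled points and solid lines for the deposited TPM and open points and dotted lines for TPM with each gene's median length. OKS+DR crossed 0 between days 3 and 5 and reached 1.68, and OKS+FoxO6 stayed below 0 and reached -1.35.

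Of the other 18 genes named Cdh, 7 had a mean TPM of 1 or more and 1, Cdh22, had no read. The filter on low counts passed 6, of which 1 was called lower and 0 higher, against 6.89% and 6.63% of all genes tested. Their median shift was -0.56, against -0.02 over all genes tested. The called gene was Cdh20, a type II cadherin, with 10.2, 19.7, 23.9, 17.7 and 12.5 TPM in OKS+DR and 1.38, 4, 10.1, 11.5 and 6.78 TPM in OKS+FoxO6. It was lower in OKS+FoxO6 on 5 of 5 days, by 1.42 on the log2 scale (SE 0.30, adjusted p of 0.0118 by edgeR). It was highest at day 3 in OKS+DR (69 reads, with 59 at day 1) and at day 5 in OKS+FoxO6 (46 reads, with 39 at day 3). Whether the time of the peak differed was not tested. Cdh26 was highest at day 1 in both arms, with 22.3 TPM in OKS+DR and 14.2 TPM in OKS+FoxO6, and its shift of -0.50 was not called (adjusted p of 0.473 by edgeR). Cdh6, Cdh10, Cdh18 and Cdh24 had mean levels between 3.67 and 4.64 TPM and shifts between -1.01 and 0.42, and none of these shifts was called. Cdh8, with a mean of 2.16 TPM, was not tested.

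Of 16 catenins and actin linkers, which tie cadherins to the cytoskeleton, 15 were tested. In OKS+FoxO6 2 were lower and 0 higher, against 6.89% and 6.63% of all genes tested, and the median shift was -0.06 against -0.02. Ctnnd2, a delta catenin best known from neurons, had 23.3, 47.4, 57.8, 66.6 and 71.7 TPM in OKS+DR and 16.0, 12.9, 21.0, 26.8 and 24.6 TPM in OKS+FoxO6. It was lower by 1.37 on the log2 scale (SE 0.16, adjusted p of 0.000427 by edgeR). Lima1, an actin-binding protein that joins the cadherin complex, was lower by 0.41 (SE 0.11, adjusted p of 0.0373 by edgeR). Ctnnal1, an alpha catenin relative (shift of -0.74, adjusted p of 0.0576 by edgeR), and Arvcf, of the delta catenin family (-0.52, 0.126), were not called. Beta catenin (Ctnnb1) lay between 317.2 and 448.8 TPM in all libraries, with a shift of 0.04 (SE 0.12) and an adjusted p of 0.872 by edgeR. Alpha catenin (Ctnna1) lay between 215.6 and 371.2 TPM with a shift of 0.21 (SE 0.11, adjusted p of 0.237 by edgeR). Plakoglobin (Jup) had a shift of -0.18 (SE 0.13, adjusted p of 0.429 by edgeR).

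Of the 4 nectins, immunoglobulin proteins of the same junction, 3 were tested. Among these 1 was lower and 1 higher, against 6.89% and 6.63% of all genes, and the median shift was -0.05 against -0.02. Nectin1 was 13.4, 10.4, 19.4, 21.7 and 28.3 TPM in OKS+DR and 6.32, 6.74, 5.69, 16.1 and 16.4 TPM in OKS+FoxO6. Its shift was -0.86 (SE 0.20, adjusted p of 0.0165 by edgeR). Nectin3 was 62.9, 82.5, 89.2, 61.2 and 42.1 TPM in OKS+DR and 90.5, 99.4, 118.4, 153.1 and 107.7 TPM in OKS+FoxO6. Its shift was 0.81 (SE 0.19, adjusted p of 0.0201 by edgeR), and like Cdh13 it had its widest gaps between the arms at days 5 and 7.

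Of the 15 genes for the maturation, shedding and endocytosis of cadherins, all were tested. Of them 1 was lower and 1 higher, a share near the 6.89% and 6.63% of all genes, and the median shift was 0.22 against -0.02. Furin, a convertase that cuts cadherin precursors, was higher in OKS+FoxO6 on 5 of 5 days, from 144.1 against 101.9 TPM at day 0 to 67.2 against 58.1 TPM at day 7. Its shift was 0.55 (SE 0.11, adjusted p of 0.00788 by edgeR). Pcsk6, another convertase, was lower by 0.78 (SE 0.22, adjusted p of 0.0407 by edgeR). The protease Adam10, which sheds the outer part of cadherins, had a shift of 0.27 (SE 0.13) that was not called (adjusted p of 0.222 by edgeR).

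Transcription factors known to repress Cdh1 included 9 tested genes of 10, with 1 lower and 2 higher, against 6.89% and 6.63% of all genes. Their median shift was 0.02 against -0.02. Twist1, a mesenchymal helix-loop-helix factor, had 204.1, 135.1, 73.1, 57.3 and 48.3 TPM in OKS+DR. In OKS+FoxO6 it had 319.1, 222.3, 198.2, 135.9 and 107.0 TPM, a shift of 1.00 (SE 0.16, adjusted p of 0.00237 by edgeR). It fell with day in both arms while staying higher in OKS+FoxO6 on every day. Zeb1, a zinc finger repressor of E-cadherin, was higher by 0.67 (SE 0.14, adjusted p of 0.0110 by edgeR), with 20.1, 25.5, 18.9, 21.5 and 12.4 TPM in OKS+DR and 30.1, 37.1, 42.1, 37.9 and 12.4 TPM in OKS+FoxO6. The arms were level at day 7. Tcf3, an E-box factor, was lower by 0.41 (SE 0.11, adjusted p of 0.0381 by edgeR), a call that was lost without the filter on low counts. Snai1 had a shift of -0.89 (SE 0.42) and Snai2 of 0.20 (SE 0.38), neither called (adjusted p of 0.196 and 0.794 by edgeR).

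Of 13 factors that favour Cdh1 and epithelial fate, 7 were tested, with 1 lower and 1 higher, against 6.89% and 6.63% of all genes. Their median shift was -0.75 against -0.02. Elf3, an epithelial ETS factor, had no read at days 0 and 1 in either arm. It then had 5.21, 46.7 and 56.9 TPM in OKS+DR and 2.11, 4.37 and 17.5 TPM in OKS+FoxO6 at days 3, 5 and 7. Its fitted shift was -2.07 (SE 0.46, adjusted p of 0.0183 by edgeR), and it rests on the 3 later days. Klf5 was higher by 0.99 (SE 0.28, adjusted p of 0.0404 by edgeR). Grhl3 reached 19.2 TPM at day 7 in OKS+DR and 4.09 TPM in OKS+FoxO6, and its shift of -1.38 (SE 0.72) was not called (adjusted p of 0.244 by edgeR). Grhl2 did not pass the filter, with 8.21 and 0.63 TPM at day 7 from 13 and 2 reads. Ehf was close in the arms at day 7, with 29.5 TPM in OKS+DR and 28.2 TPM in OKS+FoxO6. Its shift of -0.12 (SE 0.26) was not called (adjusted p of 0.819 by edgeR).

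**Figure D5:**
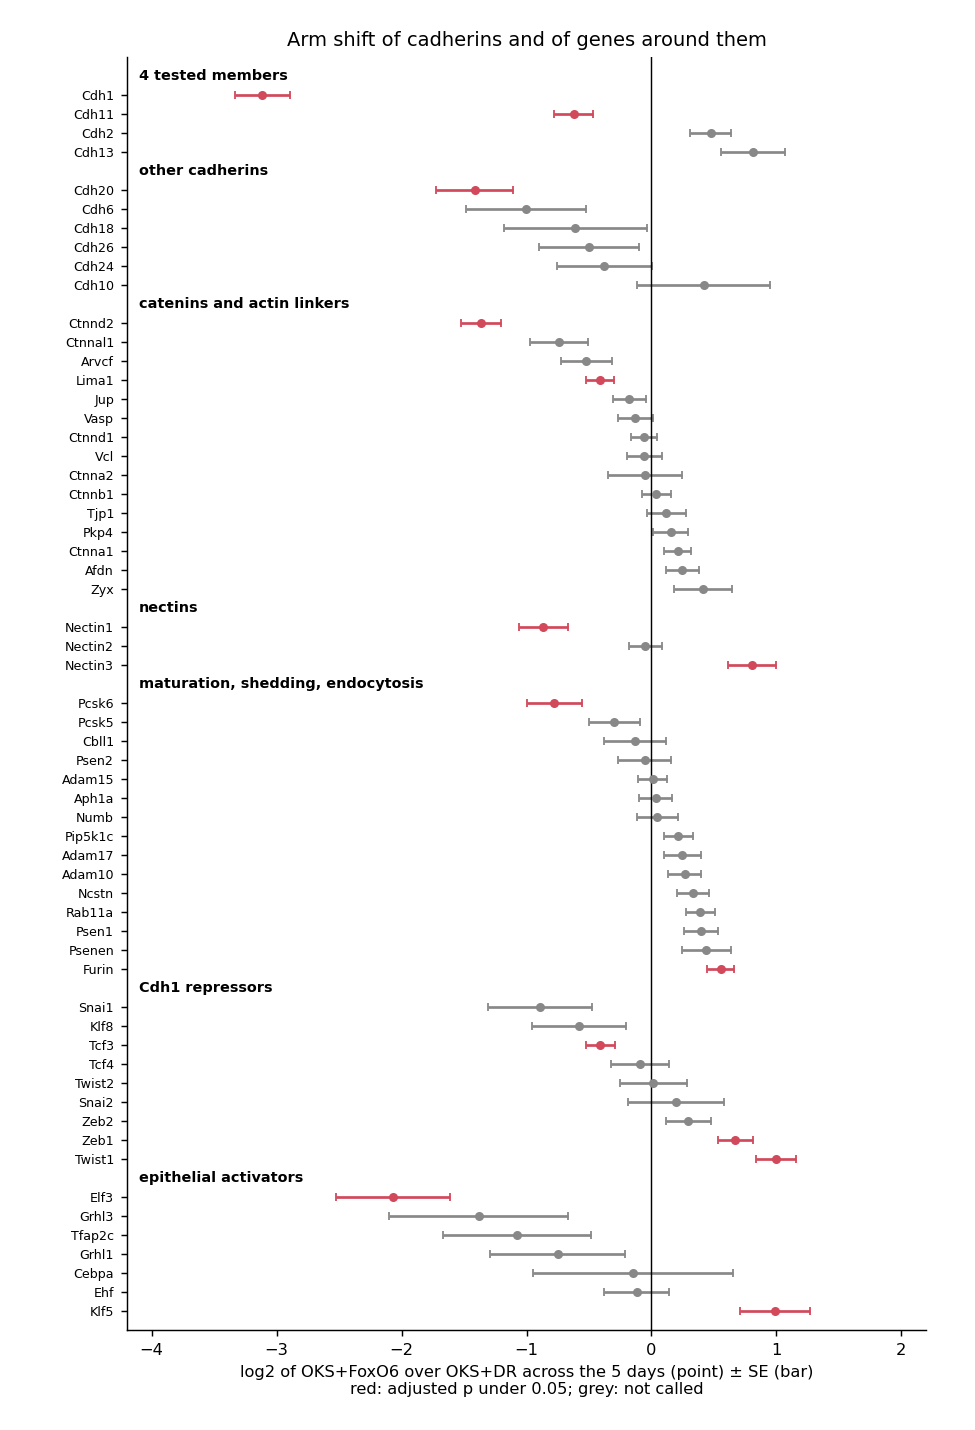
Shift between the arms over the 5 days as log2 of OKS+FoxO6 over OKS+DR (horizontal axis), with a point and an SE bar for each tested gene, for the 4 tested members and the 6 lists of genes around them. Red genes had an adjusted p under 0.05 by edgeR and grey ones did not, and Cdh1 at -3.11 lay below every other gene shown.

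The genes whose levels followed each member most closely were taken from 9810 genes with a mean of at least 20 counts, by Pearson's r of log2(TPM + 1) over the 10 libraries. These libraries share days and arms and are not independent, so r is a description. For Cdh1 the closest were Gm4739 (r of 0.979), which GENCODE M21 lists as a processed pseudogene, Osbpl10 (0.975) and Zbtb7c (0.970). Osbpl10 went from 5.19 to 47.8 TPM in OKS+DR and from 3.01 to 12.2 TPM in OKS+FoxO6 between days 0 and 7. Whether Gm4739 shared reads with another copy was not tested. For Cdh11 they were Grb10 (0.980), Man1c1 (0.979) and Msn (0.978). For Cdh13 they were Shpk (0.965), Ctns (0.961) and Abca3 (0.959), and Shpk at day 7 had 3.74 TPM in OKS+DR and 18.3 TPM in OKS+FoxO6. For Cdh2 they were 1600012H06Rik (0.943), Nup62cl (0.926) and Ncstn (0.921). Cdh3 was below the count minimum.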

How the data were processed

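RNA-seq libraries of MEFs in both arms were analysed, 1 per arm and day. The authors aligned reads to GENCODE M13 (mm10) with bowtie2 and RSEM (per the submitters' processing notes and the methods, versions not given in the sources used here). The authors deposited expected counts, RSEM estimates without normalization, and the deposited TPM values are RSEM's as well, per effective length and scaled to one total. The labels name a VAHTS library kit and the methods a TruSeq kit. Expected counts were rounded. With R 4.3.3 and edgeR 4.0.16 (TMM, filterByExpr, quasi-likelihood test, Benjamini-Hochberg over 12212 genes, threshold 0.05), one model had day as a factor and arm, and one had a line per day in each arm, with common dispersions of 0.0367 and 0.0626. DESeq2 1.42.0 was an alternative, as were other size factors, filters, pseudocounts, lengths and each day left out. Daily differences used log2(TPM + 1), which understates changes of low genes. Ratios used counts over TMM-scaled totals with exact Clopper-Pearson 95% intervals (Python 3.11.15, scipy 1.17.1). PCR reads without molecular identifiers are not independent molecules, so intervals and floors (3 reads) cover counting error only. Gene positions come from GENCODE M21 (GRCm38).

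The members and lists were chosen with earlier results of these data known. Named were the members, per list up to 4 genes in each direction with the smallest adjusted p (all called ones, some uncalled ones), other Cdh genes whose mean TPM reached 1, the 3 genes most like each member, genes starting within 200 kb of the start of Cdh1, and Foxo6. Ctnnb1, Jup, Adam10, Grhl2, Ehf and the markers were chosen after their values were seen. No sequences were printed.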

Additional observations from a re-analysis of the deposited data

Results flagged for a closer look

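The change of Cdh13 from day 0 to day 7 had opposite signs in the arms, -0.37 in OKS+DR and 0.98 in OKS+FoxO6 in log2(TPM + 1). The OKS+DR change was within counting error, with a ratio of scaled reads of 0.797 (0.623 to 1.02). With 1 library per arm and day this difference of end points was not tested. The difference of the fitted slopes, 0.29 log2 units per day with an interval from -0.15 to 0.74, had an adjusted p of 0.699 by edgeR.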

How the results depend on the processing

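No replicate numbers pair libraries, since each arm and day holds 1; the arms were paired by day, in the shift model and in the ratio of Cdh1 to Cdh2. Cdh1 was called lower in OKS+FoxO6 in every fit but that without a day term, where the shift was -2.91 (adjusted p of 0.262 by edgeR). Cdh11 was lost there too (-0.53), and ranged from -0.74 to -0.54 with each day left out. Cdh2 was called without a filter on low counts (0.50) and ranged from 0.34 to 0.65 with each day left out. Cdh13 was called without a filter (0.84), among genes whose mean TPM reached 1 (0.84) and by DESeq2 (0.81), and ranged from 0.55 to 1.02. Members called lower numbered 2, from 1 to 2 with each day left out and 0 without a day term. Members called higher numbered 0, from 0 to 2 with each day left out, 2 without a filter, 1 among genes whose mean TPM reached 1 and 1 by DESeq2.

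Genes lower and higher over the days numbered 841 and 810, but 44 and 125 without a day term, 335 to 841 and 370 to 837 with each day left out, and 547 lower by DESeq2. Genes falling and rising numbered 739 and 711 in OKS+DR (262 to 591 and 221 to 586 with each day left out) and 581 and 586 in OKS+FoxO6 (246 to 422 and 179 to 423). A fit on fewer days has fewer libraries. Genes with different slopes numbered 0, but 6 lower and 4 higher without a filter, 17 and 17 by DESeq2, and from 0 to 1 lower with each day left out. Without a filter 1 catenin complex gene was higher and 0 repressors lower, so the Tcf3 call was lost there.

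Members past 2-fold numbered 2 at day 0 with a pseudocount of 0.1 and with log2 CPM, and 2 at day 3 with a pseudocount of 0.1. The Cdh1 share at day 1 in OKS+FoxO6 was 0.20% in counts and 0.19% with the median length, an alternative chosen after seeing the data, against 1.18% in TPM. The switch ratio kept its direction, from -3.34 to -2.61 with each day left out. The cause of these changes was not tested. Depth limits Cdh3 and the early Cdh1 values of OKS+FoxO6.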
